A study of Nasonia vitripennis with 9 samples.

Results

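CPLCP1 and CPLCP2 are 2 genes of the parasitoid wasp *Nasonia vitripennis* whose names place them among the low-complexity, proline-rich cuticular proteins. They were taken by name from 15418 gene rows in 9 RNA sequencing libraries, and they were chosen for their levels in these same libraries and for the range of those levels between pools. The levels, fold changes and likeness to other genes given here are therefore descriptions, and no test is read for these 2 genes. Both passed the filter on low counts that left 11665 genes for testing.

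The insect cuticle is an extracellular coat of chitin and structural proteins that the epidermis lays down anew around each moult. The CPLCP family was first described in the mosquito *Anopheles gambiae*, where its members are secreted proteins rich in proline. The larger CPR family carries the Rebers-Riddiford motif, which binds chitin, and the Cpap3 proteins carry chitin-binding domains like those of gut peritrophic proteins. Transcripts of cuticular proteins are known to come and go within narrow windows of a moult in other insects, under the rise and fall of the moulting hormone ecdysone.

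The libraries came from pools of 5 males of the laboratory strain AsymCX, which the labels describe as cured in connection with Wolbachia, a bacterial symbiont. The pools fell into 3 treatment groups. In the dsGFP and water groups, second-instar larvae were injected roughly 3 days after the eggs were laid. The dsGFP group received double-stranded RNA of the green fluorescent protein sequence, which has no intended target in the wasp, at 4 µg/µl in water mixed with red food dye. The water group was injected with water and the same dye, and the uninjected group received no injection. Injected larvae were set on 1% agarose, returned to their blowfly hosts and were collected 5 to 6 days after injection. The labels give no separate handling or age for the uninjected pools, and they name the stage both as white pupae and as whole larvae.

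Each group had 3 libraries, and nothing in the labels says that pools come from separate cultures, so the p-values given for other genes measure only the spread between these pools. Gene totals were 33885222 to 35982723 read pairs in dsGFP, 36177528 to 37100106 in water and 38792239 to 46080606 in uninjected libraries. All 12 tissue markers checked (3 of muscle, 4 of the nervous system, 3 of the fat body, 2 of germ line and sex) were above 0 in all 9 libraries. Levels are in CPM, a gene's counts set to a common library size with edgeR's TMM factors. They are not corrected for transcript length, so the levels of different genes are not compared.

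CPLCP1 varied widely inside each treatment. It had 5626, 6551 and 350.1 CPM in dsGFP pools 1, 2 and 3, against 5495, 74.5 and 2605 CPM in water pools 1, 2 and 3 and 1928, 533 and 9.05 CPM in uninjected pools 1, 2 and 3. Each group held 1 pool far below its other pools, namely dsGFP 3, water 2 and uninjected 3, and the ranges of all 3 groups overlapped. The highest pool exceeded the lowest 18.7-fold within dsGFP, 73.8-fold within water and 213-fold within uninjected. The lowest value rests on 436 read pairs, whose exact Poisson 95% interval is 8.22 to 9.94 CPM; such intervals cover counting error only. In pools of whole animals, fewer cells of a type and less RNA per cell cannot be told apart.

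CPLCP2 followed the same course. It had 9250.0, 14605 and 1274 CPM in dsGFP pools 1, 2 and 3, against 8408, 318 and 5554 CPM in water pools 1, 2 and 3 and 4045, 1692 and 15.8 CPM in uninjected pools 1, 2 and 3. The same 3 pools were lowest in their groups, and the groups overlapped again. The highest pool exceeded the lowest 11.5-fold within dsGFP, 26.4-fold within water and 255-fold within uninjected. Its lowest value rests on 763 read pairs (exact Poisson 95% interval 14.7 to 17.0 CPM).

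The order of the 9 libraries was the same for both genes: dsGFP 2 was highest, then dsGFP 1, water 1, water 3, uninjected 1, uninjected 2, dsGFP 3, water 2 and uninjected 3. This order held under TMM, RLE and upper-quartile scaling and with unscaled gene totals. Counting error was small beside these steps, but each step sets 1 pool against 1 pool.

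**Figure D1:**
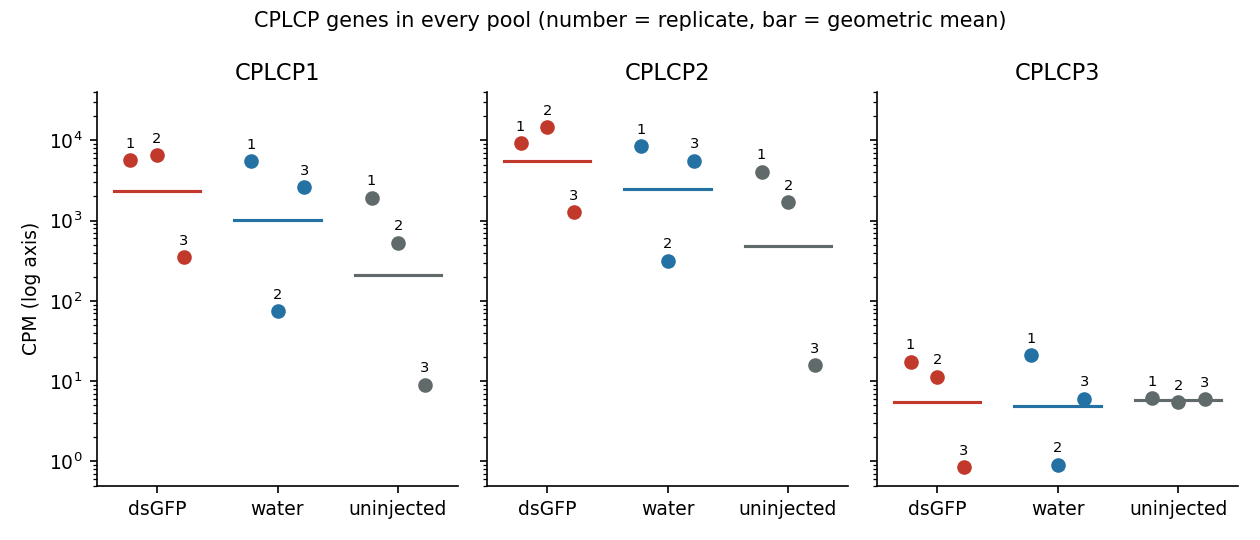
CPM on a log axis of CPLCP1, CPLCP2 and CPLCP3 in dsGFP, water and uninjected pools; each point is 1 library marked with its replicate number, and bars are geometric means. CPLCP1 and CPLCP2 have 1 low pool in each group (dsGFP 3, water 2, uninjected 3), while CPLCP3 stays between 5.46 and 6.12 CPM in the 3 uninjected pools.

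At the top of that order the pair took up a visible part of the library. Together CPLCP1 and CPLCP2 held 1.48, 1.90 and 0.160% of all gene counts in dsGFP pools 1, 2 and 3, against 1.32, 0.0397 and 0.875% in water pools and 0.586, 0.221 and 0.00282% in uninjected pools. The count of CPLCP2 per count of CPLCP1 moved far less than either gene. It was 1.64, 2.23 and 3.64 in dsGFP pools, against 1.53, 4.27 and 2.13 in water pools and 2.10, 3.17 and 1.75 in uninjected pools. This ratio was highest in water 2 and dsGFP 3, which were the low pools of their groups, but not in uninjected 3, the lowest pool of all.

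Across the 9 libraries the log2 CPM of CPLCP1 and CPLCP2 had a Pearson r of 0.988 and a Spearman rho of 1.0. These points share depth and scaling within a library, and both genes were chosen on the values, so no p is given. After the group means were taken away, r was 0.985. Without the 2 libraries farthest from the median of CPLCP1, water 2 and uninjected 3, r was 0.989 over 7 libraries. The slope of CPLCP2 on CPLCP1 was 0.94 on the log2 scale over all 9 libraries and 0.78 without uninjected 3, so this slope leaned on 1 pool.

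CPLCP3 is the remaining gene of that name in the files, and it was not among the genes chosen. It had 17.4, 11.4 and 0.848 CPM in dsGFP pools 1, 2 and 3, against 20.9, 0.906 and 6.03 CPM in water pools and 6.12, 5.46 and 5.98 CPM in uninjected pools. In the injected groups it was lowest in dsGFP 3 and water 2, as CPLCP1 and CPLCP2 were. In uninjected pools its highest value exceeded its lowest only 1.12-fold, against 213-fold for CPLCP1 and 255-fold for CPLCP2. Its r with CPLCP1 was 0.586 over 9 libraries and 0.913 without uninjected 3, and its r with CPLCP2 was 0.464 and 0.886. The count of CPLCP1 per count of CPLCP3 was 575 in dsGFP 2, its highest value, and 1.51 in uninjected 3, its lowest.

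Few genes varied as much between pools. Over all 9 libraries the highest CPM exceeded the lowest 724-fold for CPLCP1 and 922-fold for CPLCP2, which placed them 19th and 16th among 10450 genes with a mean of at least 1 CPM. The median gene among these varied 1.47-fold, and 239 genes (2.29%) varied at least 10-fold and 67 (0.641%) at least 100-fold. Uninjected 3 carried much of that range: without it the values were 87.9-fold and 45.9-fold, at ranks 47 and 75, beside a median of 1.38-fold.

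Most of the spread lay inside the treatment groups. The pooled within-group SD of log2 CPM was 3.31 for CPLCP1 and 3.09 for CPLCP2, ranks 12 and 19, against a median of 0.17 over the same genes. The share of the variance that lay between the 3 groups was 22.1% for CPLCP1 and 25.5% for CPLCP2, and the median gene had 25.0%. In edgeR's fit the biological coefficient of variation was 1.42 for CPLCP1 and 1.32 for CPLCP2, against a median of 0.171.

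**Figure D2:**
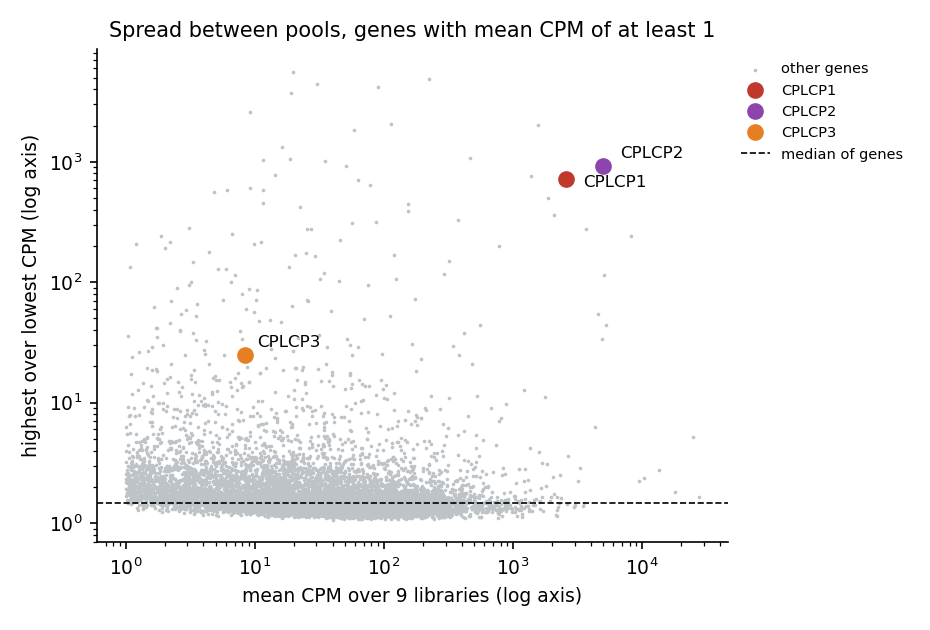
Highest over lowest CPM among the 9 libraries (log axis) against mean CPM (log axis) for 10450 genes with a mean of at least 1 CPM; coloured points are CPLCP1, CPLCP2 and CPLCP3, and the dashed line is the median of all genes, 1.47-fold. CPLCP1 (724-fold) and CPLCP2 (922-fold) lie far above the line, and CPLCP3 (24.7-fold) lies between.

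Set between treatments, both genes had their highest mean in dsGFP and their lowest in uninjected pools. CPLCP1 averaged 4176 ± 3345 CPM in dsGFP, 2725 ± 2712 CPM in water and 823 ± 992 CPM in uninjected pools (SD, n = 3 each). CPLCP2 averaged 8376 ± 6709 CPM in dsGFP, 4760.0 ± 4103 CPM in water and 1918 ± 2024 CPM in uninjected pools (SD, n = 3 each). The SD was 80.1 to 120.4% of the mean across these groups, and the ranges of the 3 groups overlapped.

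For dsGFP against water, the question is what the double-stranded RNA itself changes beyond the injection. The fitted log2 fold change was 0.62 for CPLCP1 (SE 1.98, 95% interval -4.20 to 5.43) and 0.82 for CPLCP2 (SE 1.82, 95% interval -3.60 to 5.23). Neither gene was among those called at an edgeR adjusted p under 0.05. That fit called 0 of 11665 genes (0.0%) in this comparison, with 710 at an unadjusted p under 0.05, 6 called by DESeq2 and 0 by limma-voom. Leaving out water 2 gave 0.05 for CPLCP1 and 0.27 for CPLCP2.

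For water against uninjected, which bears on injection with its handling, the log2 fold change was 1.73 for CPLCP1 (SE 2.03, 95% interval -3.20 to 6.66) and 1.31 for CPLCP2 (SE 1.84, 95% interval -3.15 to 5.77). Neither was called, beside 1 of 11665 genes (0.00857%) called by edgeR. Without uninjected 3 the values were 1.13 and 0.71.

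For dsGFP against uninjected, the log2 fold change was 2.34 for CPLCP1 (SE 2.08, 95% interval -2.69 to 7.38) and 2.13 for CPLCP2 (SE 1.89, 95% interval -2.45 to 6.70). Neither was called, beside 531 genes (4.55%) called by edgeR, 51 higher and 480 lower in dsGFP. That background count was 134 without dsGFP 2, 244 without dsGFP 1, 295 without uninjected 2 and 932 with DESeq2. Without uninjected 3 the values were 1.74 and 1.53. The 3 comparisons share libraries. Since both genes were chosen on these values, nothing is read from the missing calls.

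**Figure D3:**
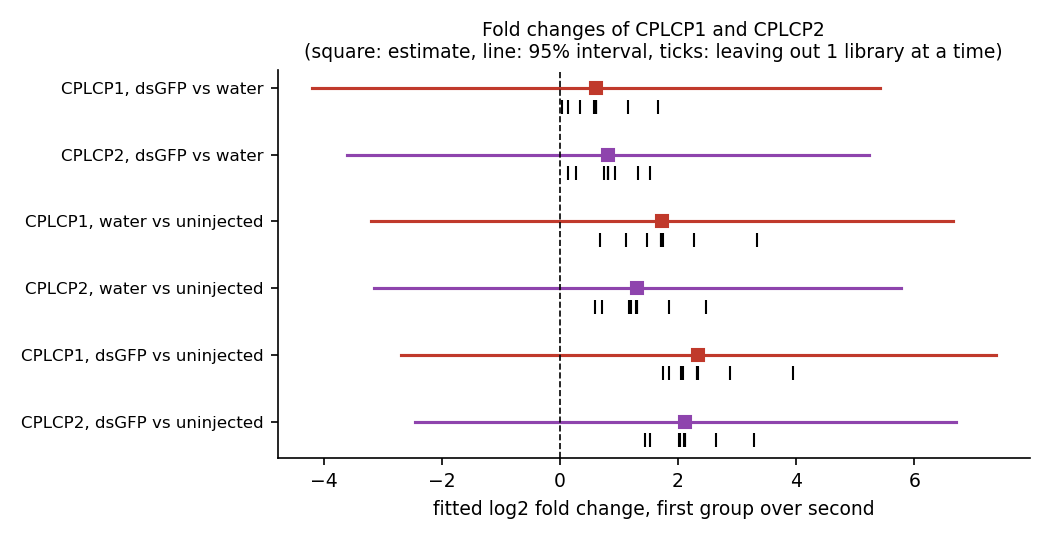
Fitted log2 fold changes (first group over second) of CPLCP1 and CPLCP2 in 3 comparisons; squares are estimates, lines are 95% intervals, and ticks beneath each line are the estimates with 1 library left out. The widest interval, for CPLCP1 in dsGFP against uninjected, runs from -2.69 to 7.38, and for dsGFP against water the ticks reach down to 0.05 for CPLCP1 and 0.15 for CPLCP2.

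A small set of genes followed CPLCP1 and CPLCP2 from pool to pool. Among 10448 other genes with a mean of at least 1 CPM, 56 (0.536%) had an r of at least 0.95 with CPLCP1 and 58 (0.555%) with CPLCP2, on log2 CPM over the 9 libraries. The opposite course was rarer, with an r of -0.95 or less for 1 gene with CPLCP1 and 3 genes with CPLCP2. A set of 36 genes passed 0.95 with both, which is 64.3% of the first set and 62.1% of the second. The same order of all 9 libraries was found for 22 genes (0.211%). These genes were picked by their values here, so their number and their levels are a description with no test.

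Of the 36 genes, 32 were annotated as protein coding, 1 as a long non-coding RNA and 3 had no type in the RefSeq table. Only 4 had a name other than a locus number, and all 4 were CPR genes (CPR1, CPR15, CPR37 and CPR59). The range between pools of the 36 genes was mostly wide: it was at least 100-fold in 14, at least 10-fold in 29 and under 2-fold in 1, with a median of 45.7-fold. Together the 36 genes held 3.37, 5.30 and 0.971% of gene counts in dsGFP pools 1, 2 and 3, against 2.63, 0.293 and 1.79% in water pools and 1.96, 1.24 and 0.0471% in uninjected pools. With CPLCP1 and CPLCP2 the sum reached 7.199% in dsGFP 2 and was 0.04996% in uninjected 3.

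How many genes followed depended on single pools. Leaving out 1 library at a time gave 34 to 62 genes with an r of at least 0.95 with both CPLCP1 and CPLCP2. Without uninjected 3 there were 34, of which 14 were in the set of 36. Without dsGFP 2 there were 62 and without water 3 there were 61, of which 33 and 36 were in that set.

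CPR59 and CPR37, structural proteins of the chitin-binding CPR family, were the named genes most like CPLCP1. CPR59 had 792, 914 and 53.4 CPM in dsGFP pools 1, 2 and 3, against 932, 12.5 and 303 CPM in water pools and 306, 72.6 and 2.82 CPM in uninjected pools. Its r was 0.996 with CPLCP1 and 0.972 with CPLCP2. CPR37 had 690.2, 860 and 61.2 CPM in dsGFP pools, against 508, 16.5 and 394 CPM in water pools and 255, 88.7 and 5.71 CPM in uninjected pools. Its libraries stood in the same order as those of CPLCP1, with r of 0.994.

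CPR15 and CPR1 belong to the same family. CPR15 had 24.1, 30.4 and 2.12 CPM in dsGFP pools 1, 2 and 3, against 48.4, 0.879 and 10.2 CPM in water pools and 9.30, 3.23 and 0 CPM in uninjected pools. With the empty library set to a floor of 3 counts, its highest pool was at least 778-fold higher than its lowest. CPR1 had 7296, 15008 and 3100.3 CPM in dsGFP pools, against 6549, 967 and 3443 CPM in water pools and 5189, 3849 and 130.2 CPM in uninjected pools. CPR15 had r of 0.987 with CPLCP1 and 0.984 with CPLCP2, and CPR1 had r of 0.951 and 0.979. Leaving out uninjected 3 gave r with CPLCP1 of 0.976 for CPR15 and 0.9025 for CPR1. For CPR59 and CPR37 it gave 0.997 and 0.996.

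The Cpap3 genes closest to CPLCP1 and CPLCP2 did not reach 0.95 with both, and their range was narrower than that of the CPR genes just described. Cpap3-a2 had 492, 707 and 269 CPM in dsGFP pools 1, 2 and 3, against 352, 148 and 312 CPM in water pools and 281, 235 and 64.6 CPM in uninjected pools. Its r was 0.949 with CPLCP1 and 0.965 with CPLCP2, yet its highest pool exceeded its lowest only 10.95-fold. Cpap3-a1 had r of 0.961 with CPLCP1 at a 7.02-fold range, and Cpap3-d1 had r of 0.947 with CPLCP2 at a 13.0-fold range. Leaving out uninjected 3 gave r with CPLCP1 of 0.882 for Cpap3-a2, 0.947 for Cpap3-a1 and 0.803 for Cpap3-d1.

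Most of the genes closest to CPLCP1 and CPLCP2 carry only a locus number, and no role is given for them. LOC100678851 was the gene most like CPLCP1, with r of 0.997. It had 3962, 2961 and 158 CPM in dsGFP pools 1, 2 and 3, against 2292, 44.6 and 1614 CPM in water pools and 1153, 288 and 5.19 CPM in uninjected pools. LOC116416142 was most like CPLCP2, with r of 0.996, and had the widest range of the 36 genes, 2017-fold. It had 3129, 4354 and 426 CPM in dsGFP pools, against 1922, 78.8 and 1766 CPM in water pools and 1663, 590.3 and 2.16 CPM in uninjected pools. Both genes shared the low pools dsGFP 3, water 2 and uninjected 3.

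**Figure D4:**
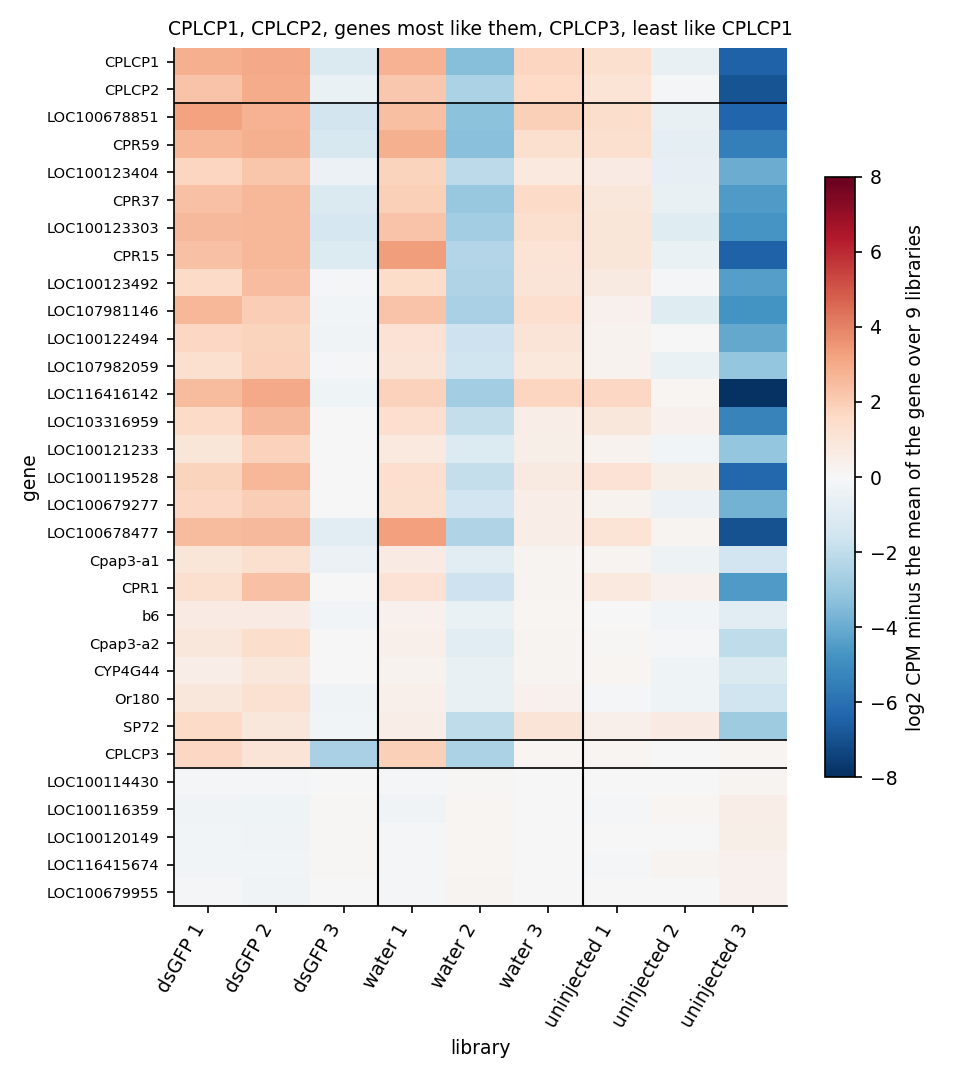
Log2 CPM of each gene minus its mean over the 9 libraries (colour, red high and blue low) in dsGFP, water and uninjected libraries; rows from the top are CPLCP1 and CPLCP2, the genes most like them, CPLCP3, and the genes least like CPLCP1. In every row above CPLCP3 the lowest library of each group is dsGFP 3, water 2 or uninjected 3, CPLCP3 is not lowest in uninjected 3, and the bottom rows differ by at most 1.85-fold between pools.

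Genes with the opposite course changed little in level. LOC100114430 had the lowest r with both genes, -0.960 with CPLCP1 and -0.973 with CPLCP2. It had 46.0, 44.6 and 50.1 CPM in dsGFP pools 1, 2 and 3, against 45.6, 50.9 and 48.6 CPM in water pools and 47.5, 48.3 and 57.1 CPM in uninjected pools, a range of 1.28-fold. CYP6CK10, a cytochrome P450 gene, had r of -0.952 with CPLCP2 at a range of 1.71-fold. The widest range among the 5 genes least like CPLCP1 was 1.85-fold, in LOC100116359.

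The wider cuticle list was built from gene symbols (CPR, Cpap3, yellow, Osiris, Tweedle and apidermin genes, among others) and leaves out CPLCP1 and CPLCP2. Of its 59 genes 45 were tested, and 31 had an r above 0 with the mean log2 CPM of CPLCP1 and CPLCP2, while 14 had one below 0. The median r was 0.575, and 9 of the 45 reached 0.9, while over all 11663 other genes tested the median was -0.067 and 222 reached 0.9. The list thus held both close followers and genes with the opposite course. Without uninjected 3 the counts above and below 0 were again 31 and 14, the median was 0.475, and 7 reached 0.9, against a median of -0.035 and 133 over all genes.

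By family, all 6 Cpap3 genes had an r above 0 (median 0.933) and 4 reached 0.9; without uninjected 3, 1 did. Of 24 CPR genes 16 were above 0 and 8 below, with a median of 0.752 and 5 at 0.9 or more. The Tweedle genes, a family of structural cuticle proteins, had r of 0.737 and 0.743. Of 7 yellow genes, which act in pigmentation and other roles, 4 were above 0 and 3 below (median 0.388). The 2 Osiris genes had r of -0.189 and -0.186, and the 2 apidermin genes 0.029 and 0.052.

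**Figure D5:**
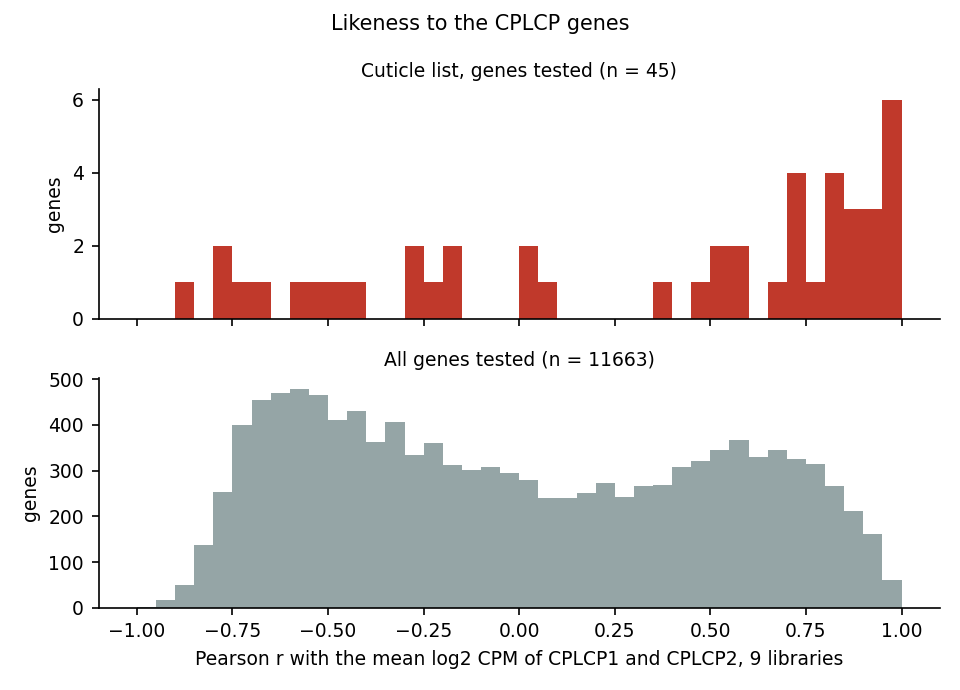
Pearson r of log2 CPM with the mean log2 CPM of CPLCP1 and CPLCP2 over the 9 libraries (horizontal axis) and number of genes (vertical axis), for 45 cuticle genes above and all 11663 genes tested below. In the cuticle list 9 of 45 genes reach 0.9 and none is at -0.9 or less, and the median is 0.575 against -0.067 for all genes.

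CPR49 had the lowest r with the pair among cuticle genes, -0.846 with CPLCP1 and -0.863 with CPLCP2. It had 29.9, 26.1 and 32.5 CPM in dsGFP pools 1, 2 and 3, against 34.2, 41.2 and 32.8 CPM in water pools and 37.6, 40.6 and 49.8 CPM in uninjected pools. Its highest value fell in uninjected 3, where CPLCP1 and CPLCP2 were lowest. CPR47 (r of -0.786 with CPLCP1) and the yellow gene Y-f (-0.770) came next. Without uninjected 3 the r with CPLCP1 was -0.707 for CPR49, -0.663 for CPR47 and -0.495 for Y-f.

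Between treatments edgeR called no cuticle gene in the 2 comparisons with water. For dsGFP against water, edgeR called 0 of 45 listed genes, with 3 at an unadjusted p under 0.05 and 0 by DESeq2 or limma-voom, and the median log2 fold change was 0.08 against 0.01 over all genes. For water against uninjected, edgeR called 0, with 4 at an unadjusted p under 0.05, 1 by DESeq2 and 0 by limma-voom, and the median was 0.01 against 0.00.

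For dsGFP against uninjected, 3 listed genes were lower in dsGFP and 0 higher. That is 6.67% of the list, beside 4.11% of all genes called lower and 0.437% called higher. The count was 1 with limma-voom and when any of dsGFP 1, dsGFP 2, water 3, uninjected 2 or uninjected 3 was left out. The 3 genes were CPR44 (log2 fold change -3.07, SE 0.40, edgeR adjusted p = 0.00871), CPR47 (-0.96, SE 0.22, adjusted p = 0.0296) and CPR22 (-2.12, SE 0.52, adjusted p = 0.0428). CPR22 and CPR44 were near the floor. CPR22 had 0.165 to 1.46 CPM over all libraries, with 5 counts in its lowest library and its highest value in uninjected 2. CPR44 had 0.339 to 0.438 CPM in dsGFP pools. All 3 called genes had an r below 0 with CPLCP1, at -0.635, -0.786 and -0.517. The list's median log2 fold change was 0.50 against 0.01 over all genes, so the median and the calls differed in sign.

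The moulting list was built from gene symbols and held 5 genes, all tested. Its members are called moulting genes here for that reason only. Burs, a subunit of the tanning hormone bursicon, had r of 0.838 with CPLCP1. It had 6.10, 7.11 and 3.47 CPM in dsGFP pools 1, 2 and 3, against 4.93, 3.41 and 4.30 CPM in water pools and 4.02, 3.06 and 2.78 CPM in uninjected pools. The ecdysone receptor gene Ecr had r of 0.707, Eh1 0.677 and the ecdysis triggering hormone gene Eth 0.653. Eh1 entered the list by its symbol alone, and whether it acts in moulting was not checked. Without uninjected 3 the r of Ecr was 0.203, that of Eh1 0.356 and that of Eth 0.469, so these 3 values leaned on that pool.

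CYP314A1, which makes the active moulting hormone 20-hydroxyecdysone, had r of -0.608 with CPLCP1 and -0.481 without uninjected 3. It had 28.5, 24.5 and 32.1 CPM in dsGFP pools 1, 2 and 3, against 30.9, 44.2 and 37.3 CPM in water pools and 46.5, 112 and 73.8 CPM in uninjected pools. It was lower in dsGFP than in uninjected pools (log2 fold change -1.45, SE 0.30, edgeR adjusted p = 0.0332), the only call among the 5 moulting genes (20.0% of the list, beside 4.11% of all genes called lower). That call was lost when any of dsGFP 1, dsGFP 2, dsGFP 3, water 3 or uninjected 3 was left out. In the other comparisons edgeR called 0 of the 5, with 0 at an unadjusted p under 0.05 for dsGFP against water and 2 for water against uninjected, where DESeq2 called 1 and limma-voom 0.

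CPLCP1 and CPLCP2 lie on different chromosomes in assembly Nvit_psr_1.1, which was used for names and for neighbours only. Of the 5 genes on each side of CPLCP1, 9 of 10 were tested, and their r with CPLCP1 ran from -0.736 to 0.817. The widest range between pools among them was 1.95-fold, beside 724-fold for CPLCP1. Around CPLCP2, 7 of 10 neighbours were tested, with r from -0.393 to 0.894 and a widest range of 4.85-fold in LOC100120280 (LOC100123556, at 2 counts in its lowest library, was left out of the range). No neighbour of either gene reached an r of 0.95.

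Other features of the libraries moved with CPLCP1 to some degree, and their part in the levels was not tested. The 3 fat body genes encode hexamerin storage proteins and went different ways: r with CPLCP1 was -0.853 for Hex70b, 0.280 for Hex83 and 0.594 for Hex109. Hex70b made up nearly all of their sum, at 1997 to 4440.3 CPM, while Hex83 reached at most 14.1 CPM and Hex109 at most 25.7 CPM. The summed level of the 3 fat body genes was 2037 to 3089 CPM in dsGFP, 2472 to 4232 CPM in water and 3266 to 4451 CPM in uninjected pools. Of the muscle genes, Tm1 (687 to 898 CPM) had r of 0.722, while Tm2 (14.0 to 67.8 CPM) and Zasp66 (5.73 to 26.5 CPM) had r of -0.784 and -0.529. The muscle sum, which is mostly Tm1, was 853 to 918 CPM in dsGFP, 779 to 931 CPM in water and 772 to 883 CPM in uninjected pools, and the nervous system sum 72.6 to 98.9, 102 to 118 and 109 to 151 CPM in the same groups. All 4 nervous system genes had an r below 0 with CPLCP1, the lowest being -0.671 for Slo. Of the germ line and sex genes, Nos had r of -0.614 with CPLCP1 and Dsx 0.405. The gene total of a library had r of -0.545 with log2 CPLCP1, the TMM factor -0.702, the share of ambiguous read pairs -0.638 and the summed CPM of rRNA genes 0.512 (n = 9 libraries each). Without the 2 libraries farthest from the median the same values were -0.588, -0.304, -0.166 and 0.393.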

How the data were processed

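The authors deposited 1 table of gene counts per library, made with STAR 2.6.1b per the submitters' processing notes. No source used here names the genome build. The labels' protocols describe poly(A) enrichment and paired reads of 150 bp. The counts regardless of strand were used. The first strand column held 49.95 to 50.13% of stranded counts for all genes and 48.17 to 52.03% for CPLCP1 and CPLCP2, so overlapping antisense genes cannot be told apart; multimapped reads are not in the counts. The 12 rows that name no gene were left out (0.0518 to 0.0608% of counts), and 14940 of 15418 symbols matched RefSeq.

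Genes were kept with filterByExpr (minimum count 10, minimum total 15), scaled by TMM and tested with edgeR 4.0.16 (glmQLFit, robust, glmQLFTest; Benjamini-Hochberg adjusted p under 0.05) in 1 fit of 3 groups in R 4.3.3. The fit was also run on simulated counts in which each gene varied independently. Such counts lack the shared movement of genes between pools, so they cannot check the calls under it. Likeness is Pearson's r of log2 CPM (prior count 2). The genes picked as most or least like CPLCP1 and CPLCP2 have a mean of at least 1 CPM. Values for the lists and the neighbours cover all genes tested, also those under that mean. Named genes are the 10 highest and 5 lowest by r with each gene, the 10 highest with a symbol, the 5 highest and 3 lowest of each list, called list genes and the 5 neighbours on each side; the text gives a selection. CPLCP3 was added after its values were seen. The genes and lists were chosen with earlier results of these data known. Alternatives used DESeq2 1.42.0, limma 3.58.1, other scaling, no filter, a replicate block and each library left out. Protein and promoter sequences were not analysed here.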

Additional observations from a re-analysis of the deposited data

How the results depend on the processing

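The fold changes of CPLCP1 and CPLCP2 moved by less than the spread between pools under all 16 alternatives to the settings reported. Leaving out 1 library at a time gave log2 fold changes of 0.05 to 1.66 (CPLCP1) and 0.15 to 1.53 (CPLCP2) for dsGFP against water, 0.68 to 3.33 and 0.59 to 2.48 for water against uninjected, and 1.74 to 3.95 and 1.45 to 3.30 for dsGFP against uninjected. With limma-voom the values were 1.21 and 1.19, 2.25 and 2.33, and 3.46 and 3.52. No clear pairing by replicate number was seen. Same-numbered libraries had deviation correlations from -0.33 to 0.428, and 1 of 9 libraries correlated best with its own number. Whether same-numbered libraries shared a batch was not tested. With the replicate block the values were -0.41 and -0.07 (a turn of direction for dsGFP against water), 3.31 and 2.64, and 2.90 and 2.57, and 0, 1 and 539 genes were called. The highest over lowest level was 87.9 to 724-fold for CPLCP1 and 45.9 to 922-fold for CPLCP2 when 1 library was left out. Between the pair, rho was 1.0, and r was 0.985 on deviations from group means and 0.986 to 0.995 when 1 library was left out. DESeq2 called 6, 45 and 932 genes in the 3 comparisons, against 0, 1 and 531. Leaving out 1 library gave 1 to 7 genes for water against uninjected (7 without uninjected 1) and 134 to 681 for dsGFP against uninjected (134 without dsGFP 2, 244 without dsGFP 1, 295 without uninjected 2). For water against uninjected, DESeq2 called 1 cuticle gene and 1 moulting gene lower. For dsGFP against uninjected, the replicate block gave 2 cuticle genes and 1 moulting gene higher, limma-voom gave 1 cuticle gene lower, and leaving out 1 library gave 1 to 4 cuticle genes lower, 0 to 1 moulting gene higher and 0 to 1 lower. The cuticle count was 1 without dsGFP 1, dsGFP 2, water 3, uninjected 2 or uninjected 3, and 1 moulting gene was higher without dsGFP 3 or uninjected 1. CYP314A1 was lost without dsGFP 1, dsGFP 2, dsGFP 3, water 3 or uninjected 3. The cause of these moves was not tested. Ranking by Spearman kept 1 of the 10 genes most like CPLCP1 and 2 of those most like CPLCP2, since 22 genes tie at the same order; leaving out 1 library kept 5 to 10 and 4 to 8. Depth was no limit for CPLCP1 and CPLCP2, whose lowest library held 436 and 763 read pairs, whereas CPR15 had 0 counts in uninjected 3 and CPR22 had 5 counts in its lowest library.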

Other observations

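Several named genes outside the cuticle list also ran with CPLCP1 and CPLCP2, again chosen by their values and given without a test. CYP4G44 belongs to a P450 subfamily that makes cuticular hydrocarbons in *Drosophila melanogaster*. It had 91.1, 119 and 62.8 CPM in dsGFP pools 1, 2 and 3, against 73.97, 40.4 and 71.8 CPM in water pools and 67.8, 49.2 and 28.3 CPM in uninjected pools, with r of 0.943 with CPLCP1. The low pools of CPLCP1 were its lowest in each group, at a range of only 4.18-fold. The odorant receptor gene Or180 had r of 0.941 at a 7.70-fold range, with 0.851 to 6.55 CPM. The numbered serine protease gene SP72 had r of 0.941 and was at 12 counts in uninjected 3. The gene b6 had r of 0.9502 with CPLCP1 at a 2.93-fold range, and CLGC1 had r of 0.948 with CPLCP2 at a 3.13-fold range. Without uninjected 3 the r with CPLCP1 was 0.890 for CYP4G44, 0.876 for Or180, 0.873 for SP72, 0.933 for b6 and 0.822 for CLGC1.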
